A study of Homo sapiens with 4 samples.

Results

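The EGFR family consists of 4 cell-surface receptors (EGFR, ERBB2, ERBB3 and ERBB4) and the peptide ligands that bind them. Its transcripts were read here in ES-2, a long-used human line derived from an ovarian tumour that carries the YAP1-MAML2 (YM) fusion, with and without an shRNA against MAML2. The 10 genes were taken by symbol, 4 receptors and 6 ligands (AREG, EREG, HBEGF, TGFA, BTC and NRG1), and all 10 were found among the 19626 genes of the deposited tables. The comparison asks how receptor and ligand transcripts differ once the fusion transcript and native MAML2 are depleted together.

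Ligands of this family are made as membrane-anchored precursors, and metalloproteases cut many of them from the cell surface. Binding lets receptors pair with each other and switches on the RAS-ERK and PI3K-AKT cascades. AREG, EREG, HBEGF, TGFA and BTC bind EGFR, and EREG, HBEGF and BTC also bind ERBB4. NRG1 (neuregulin 1) binds ERBB3 and ERBB4. ERBB2 has no known soluble ligand and acts as a partner, whereas ERBB3 has little kinase activity of its own. In epithelial cancers the pathway is known for driving growth, and several ligands, AREG in particular, have been described as YAP/TEAD targets in other cells.

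Both groups were the same line, infected with pLKO.1 lentivirus for 8 h on 2 consecutive days. The control group (shCtl, n = 2) received a non-targeting shRNA and the other (shM2-3, n = 2) an shRNA against a sequence that MAML2 and the YM fusion share. The sample labels place RNA collection 96 h after the first infection, and the methods of the study give a shorter time and, for its lentiviral work in general, another infection schedule. The design has 1 line and 1 targeting shRNA, so an effect of the fusion, of native MAML2 and of the hairpin itself cannot be told apart. RNA came from whole cultures, and a lower level in each cell cannot be told apart from fewer cells that express the gene.

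The estimated counts summed to between 20051083 and 23978660 per library. MAML2, the gene aimed at, had 1436 and 1402 counts in the shCtl libraries and 634 and 553 in the shM2-3 libraries, a log2 fold change of -1.40 (standard error 0.0688, edgeR quasi-likelihood adjusted p = 5.23e-10). The labels give ovarian clear cell carcinoma, but the markers GPC3 and NAPSA were at or near 0, with 1 count in all 4 libraries together and 1 to 13 counts per library. ARID1A, also read for this tumour but expressed in many cell types, was at 13.6 ± 0.381 RPKM in shCtl and 17.0 ± 0.564 in shM2-3 (log2 fold change 0.39). EPCAM and CDH1 had at most 6 counts per library, while the keratin genes KRT7, KRT8 and KRT18 were abundant and lower in shM2-3 (log2 fold changes of -1.26, -1.22 and -0.68). The fibroblast transcripts DCN, LUM, POSTN and COL3A1 had at most 10 counts per library, and PTPRC and CD3E, which mark leukocytes, had at most 3. Other genes of these lists were not near 0: COL1A2 had 22 to 60 counts per library, LYZ had 33 and 15 under shCtl and 100 and 5 under shM2-3, and CD14 had 3 and 4 against 42 and 37. The remaining epithelial genes had low counts in every library, 16 and 7 against 22 and 18 for PAX8 and 34 and 14 against 9 and 22 for WT1. So did the remaining endothelial genes, with 6 and 18 against 2 and 0 for VWF and 27 and 41 against 26 and 21 for KDR. Among 6 fibroblast genes only PDGFRA passed an RPKM of 1, and through it the summed level of that list was 7.95 to 8.01 in shCtl and 25.1 to 25.7 in shM2-3. The summed level was 637 in both shCtl libraries against 313 and 316 for 7 epithelial genes, 57.4 to 58.3 against 40.0 to 41.1 for 5 leukocyte genes, mostly CD68, and 9.40 to 10.6 against 5.09 to 5.65 for 4 endothelial genes. Of these last, CDH5 fell by 1.17 on the log2 scale and PECAM1 rose by 5.07, from 6 and 5 counts to 256 and 163. PECAM1 passed the RPKM limit in shM2-3 replicate 1 only, so it entered the test through the group where it was high. The part of these shifts in the ligand results was not tested.

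Members of the family are set side by side in RPKM, a count scaled to transcript length and to the number of reads mapped in that library. In shCtl cells HBEGF was the most abundant member, at 38.3 ± 1.53 RPKM (mean ± SD, n = 2 here and below). It was followed by EGFR at 20.3 ± 0.383, NRG1 at 8.91 ± 0.128, EREG at 3.66 ± 0.112 and AREG at 1.08 ± 0.0856. The other members were under 1 RPKM in each library. In shM2-3 cells EGFR came first at 19.3 ± 0.514, followed by HBEGF at 11.2 ± 0.111, EREG at 7.38 ± 0.548, NRG1 at 1.83 ± 0.0425 and AREG at 0.746 ± 0.0944. EREG and NRG1 therefore changed places, as did EGFR and HBEGF. The replicate values of neighbours in this order did not overlap, except for ERBB4 and BTC in shCtl, and AREG and ERBB2, ERBB2 and ERBB3, and ERBB4 and TGFA in shM2-3.

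**Figure D1:**
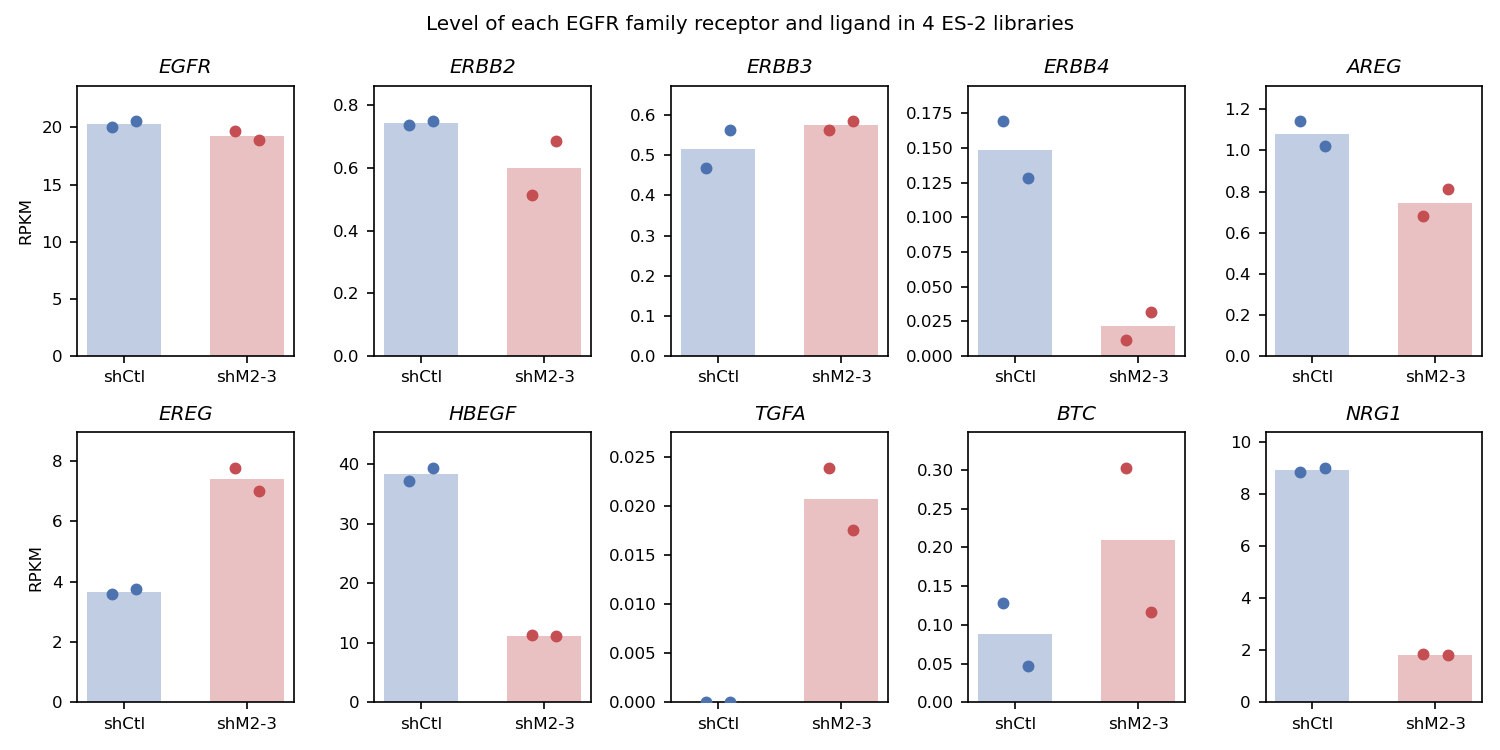
RPKM of the 10 genes in the 4 libraries, each panel on its own axis from 0. Points are libraries and bars the mean of a group (n = 2). HBEGF and NRG1 sit lower and EREG higher in both shM2-3 libraries, and EGFR is near 20 RPKM in all 4.

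The test took every gene whose RPKM exceeded 1 in any library, which left 12157 genes and 5 of the 10 members: EGFR, AREG, EREG, HBEGF and NRG1. AREG passed this limit through the shCtl libraries alone. A gene was called at a fold change of 2 or more and an adjusted p of 0.05 or less. HBEGF and NRG1 were called lower and EREG was called higher. Of all genes tested, 8.93% were called lower and 9.24% higher. Without the fold limit, the same 3 of 5 members had an adjusted p of 0.05 or less, against 72.7% of all genes tested, so passing the p limit alone sets no member apart. At a fold limit of 1.5 the count of members called was again 3, against 37.8% of all genes tested.

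EGFR was the receptor of this family that ES-2 cells expressed in quantity. The gene spans 55019017 to 55211628 on the plus strand of chromosome 7 (hg38, GENCODE v44, as for all positions here). Its counts were 5362 and 5600 in shCtl and 6442 and 5617 in shM2-3, and its RPKM was 20.01 and 20.5 against 19.7 and 18.9. The RPKM ranges did not overlap but lay within 2 RPKM of each other. With the TMM factors of edgeR the log2 fold change was -0.01 (standard error 0.0410, edgeR quasi-likelihood adjusted p = 0.909), and the 95% interval of the fold change ran from 0.937 to 1.06. EGFR ranked similarly in both groups, with 2588 genes above it in shCtl and 2542 in shM2-3.

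ERBB2 and ERBB3 were detected at low levels. ERBB2 (chromosome 17, 39687914 to 39730426, plus strand) had counts of 95 and 98 under shCtl and of 81 and 98 under shM2-3, and ERBB3 (chromosome 12, 56076799 to 56103505, plus strand) had 68 and 83 against 100 and 94. Neither passed the RPKM limit, so both were read from a fit to all 19626 genes with a count. The log2 fold change there was -0.27 (95% interval -0.72 to 0.17) for ERBB2 and 0.19 (95% interval -0.27 to 0.65) for ERBB3, and the adjusted p was 0.340 and 0.545 (edgeR's quasi-likelihood test). A fold change of 2 in either direction lies outside both intervals, which run from 0.608 to 1.12 for ERBB2 and from 0.826 to 1.57 for ERBB3 as fold changes. EGFR transcripts outnumbered those of ERBB2 between 27.1 and 38.2 times per unit length and those of ERBB3 between 32.3 and 42.7 times, over the 4 libraries.

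ERBB4, a receptor for neuregulins and for some EGFR ligands, was scarce in shCtl and scarcer in shM2-3. The gene covers 211375717 to 212538841 on the minus strand of chromosome 2. It had counts of 48 and 37 under shCtl and of 4 and 10 under shM2-3, which is 0.169 and 0.128 RPKM against 0.0115 and 0.0319. The groups did not overlap. In the fit to all genes with a count, where 7.76% of genes were called lower, ERBB4 fell by 2.74 on the log2 scale (standard error 0.543, edgeR quasi-likelihood adjusted p = 1.48e-06, 95% interval of the fold change 0.0715 to 0.312). Both shM2-3 libraries are low, but they rest on few counts, and without shM2-3 replicate 1 or 2 the value was -2.16 or -3.61. Other tests gave weaker evidence, with an adjusted p of 0.000691 from DESeq2. On log2(RPKM + 0.1) limma gave 0.0153, at a log2 fold change of -1.03. On the log2(RPKM + 1) scale ERBB4 was at -0.17. From its mean of 0.149 RPKM in shCtl, even a fall to 0 could not reach the fold limit on that scale.

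Added per length, the 4 receptors gave 21.4 and 21.99 RPKM in shCtl and 20.7 and 20.2 in shM2-3. EGFR made up between 93.5% and 94.7% of that sum in every library. The direction of the small difference depends on scaling: the log2 ratio of the sums was -0.08 in RPKM and 0.07 after rescaling every library to the same summed RPKM (TPM). That rescaling moved the median of all tested genes up by 0.16 on the log2 scale, and EGFR alone then stood at 0.08.

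HBEGF encodes heparin-binding EGF-like growth factor, a ligand of EGFR and ERBB4, and was the leading ligand transcript of the control cells. The gene lies on the minus strand of chromosome 5, from 140332843 to 140346603, and its canonical transcript has 6 exons and 2358 bases. Counts were 2055 and 2211 in shCtl and 761 and 679 in shM2-3, or 37.2 and 39.4 RPKM against 11.3 and 11.1. Both shM2-3 libraries lay far below either control, and the groups did not overlap. HBEGF fell by 1.71 on the log2 scale (standard error 0.0607, edgeR quasi-likelihood adjusted p = 1.77e-11), a level 3.27-fold lower. In shCtl 1343 genes had a higher mean RPKM than HBEGF, and in shM2-3 4346 did.

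NRG1 encodes the neuregulins, ligands of ERBB3 and ERBB4. It covers 31639222 to 32855666 on the plus strand of chromosome 8, with 35 annotated transcripts, whose types the gene-level counts do not separate. Its counts were 3699 and 3838 in shCtl and 955 and 837 in shM2-3, and its RPKM was 8.82 and 8.999 against 1.86 and 1.80. NRG1 fell by 2.22 on the log2 scale (standard error 0.0494, edgeR quasi-likelihood adjusted p = 1.51e-13). This 4.64-fold lower level was the largest change among the 5 tested members, and 200 of the 12157 genes had a lower log2 fold change, compared with 367 for HBEGF. Both differences were far larger than the spread between replicates.

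EREG, which encodes epiregulin, a ligand of EGFR and ERBB4, moved the other way. It had counts of 387 and 411 under shCtl and of 1027 and 837 under shM2-3, or 3.58 and 3.74 RPKM against 7.77 and 6.99. Each shM2-3 library was above both controls. The log2 fold change was 1.08 (standard error 0.0864, edgeR quasi-likelihood adjusted p = 8.56e-08), and the 95% interval of the fold change, 1.86 to 2.40, includes the fold limit of 2. On the log2(RPKM + 0.1) and log2(RPKM + 1) scales the value was 0.99 and 0.84, under that limit. The adjusted p from limma was 0.000101 and 9.48e-05. The rise itself was therefore kept on these scales and the call was not. Neither scale uses TMM factors, and on the first the median of all genes tested was -0.068.

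AREG encodes amphiregulin, an EGFR ligand. It had counts of 33 and 30 under shCtl and of 24 and 26 under shM2-3, or 1.14 and 1.02 RPKM against 0.679 and 0.813. The shM2-3 values were the lower ones and the groups did not overlap. Those of EGFR, at a log2 fold change of -0.01, did not overlap either, so this alone sets no member apart. The log2 fold change was -0.47 (standard error 0.426), which did not pass the test (edgeR quasi-likelihood adjusted p = 0.334). The 95% interval of the fold change, 0.381 to 1.37, leaves room for a fall of more than 2-fold, so the low counts do not settle whether AREG differed.

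TGFA and BTC, both EGFR ligands, were near the limit of detection. TGFA, on chromosome 2 from 70447284 to 70554193 (minus strand), was at 0 in each shCtl library, with 3 and 2 counts under shM2-3. A count of 0 allows up to 3 counts, 0.0292 and 0.0288 RPKM in the shCtl libraries, so no fold is given. BTC had counts of 8 and 3 under shCtl and of 23 and 8 under shM2-3, and these groups overlapped. In the fit to all genes with a count its log2 fold change was 1.28 (95% interval -0.35 to 2.90, edgeR quasi-likelihood adjusted p = 0.205). It was 0.44 without shM2-3 replicate 1 and 2.15 without shCtl replicate 1.

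**Figure D2:**
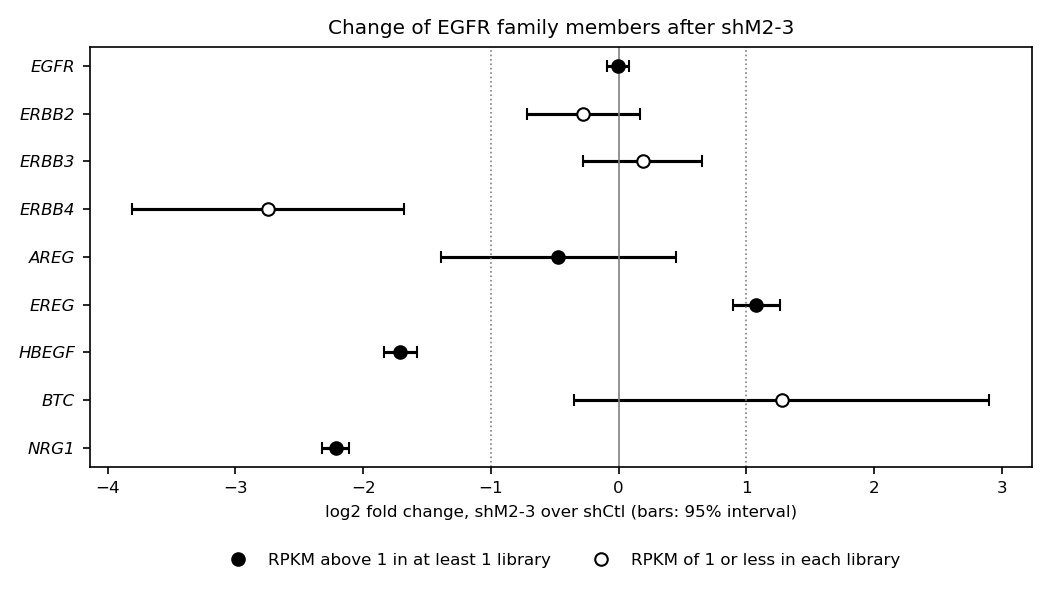
Log2 fold change of shM2-3 over shCtl for 9 members, with 95% intervals from edgeR. Filled points were fitted among the 12157 genes above the RPKM limit and open points among all 19626 genes. TGFA, with 0 counts in shCtl, is left out. Dotted lines mark a fold change of 2. NRG1, HBEGF and ERBB4 lie left of the lower line, EREG lies at the upper one, and the narrow interval of EGFR spans 0.

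The EGFR ligand genes EPGN, EREG, AREG and BTC lie next to each other on chromosome 4, in this order. EREG spans 74365145 to 74388749 and AREG 74445136 to 74455005, both on the plus strand and 56.4 kb apart, and BTC lies a further 289.8 kb away on the minus strand, from 74744759 to 74794523. EPGN (epigen), 48.4 kb before EREG, had counts of 1 and 0 under shCtl and of 5 and 2 under shM2-3. EREG had at least 387 counts in each library, and the other genes of the cluster had at most 33. The RPKM ratio of EREG to AREG was 3.14 and 3.66 in shCtl and 11.4 and 8.60 in shM2-3, without overlap.

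The RefSeq promoter windows (GRCh38.p14, 250 bases before to 50 bases after the start) of EREG, AREG and HBEGF are shown because these are a pair of neighbouring ligand genes that differ in their values and the leading ligand that fell. Each is written 5′ to 3′ on the strand of its gene. Capitals mark the TEAD core GGAATG, its reverse complement CATTCC, the cyclic AMP response element TGACGTCA or the TATA motif TATAAA.
EREG, chr4:74364895-74365194, plus strand: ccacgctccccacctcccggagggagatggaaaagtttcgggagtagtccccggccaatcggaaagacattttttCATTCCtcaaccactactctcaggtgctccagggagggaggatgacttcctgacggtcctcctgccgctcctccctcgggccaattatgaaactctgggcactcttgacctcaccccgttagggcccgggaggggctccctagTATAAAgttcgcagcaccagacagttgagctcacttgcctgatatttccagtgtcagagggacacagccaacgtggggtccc
AREG, chr4:74444886-74445185, plus strand: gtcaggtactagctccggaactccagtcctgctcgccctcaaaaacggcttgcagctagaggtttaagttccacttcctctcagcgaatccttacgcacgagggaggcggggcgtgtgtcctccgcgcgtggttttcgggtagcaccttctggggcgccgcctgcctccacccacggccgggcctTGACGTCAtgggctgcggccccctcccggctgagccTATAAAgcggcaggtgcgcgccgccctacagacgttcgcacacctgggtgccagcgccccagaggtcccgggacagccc
HBEGF, chr5:140346554-140346853, minus strand: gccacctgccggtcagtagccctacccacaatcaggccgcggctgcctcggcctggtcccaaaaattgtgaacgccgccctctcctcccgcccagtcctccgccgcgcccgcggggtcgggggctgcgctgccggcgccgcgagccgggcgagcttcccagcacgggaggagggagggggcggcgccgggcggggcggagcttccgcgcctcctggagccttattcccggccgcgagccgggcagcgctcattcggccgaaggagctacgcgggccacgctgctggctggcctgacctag

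The EREG window holds 1 TEAD core, read as CATTCC and beginning 175 bases before the start, and a TATA motif 32 bases before it. In the AREG window a TGACGTCA begins 65 bases and a TATA motif 29 bases before the start, and no TEAD core was found. HBEGF has none of these motifs in its window, whose GC content is 75.0%, compared with 57.7% for EREG and 66.3% for AREG. No window was given for ERBB3 or NRG1, which were not scanned. Of the 10 windows found for the other 8 members, that of EREG and the second of EGFR held a TEAD core on either strand, and only the second EGFR window held the AP-1 core TGACTCA. Among all 35116 windows, 14.0% held the TEAD core, 4.95% the AP-1 core, 1.85% TGACGTCA and 11.5% TATAAA or its reverse complement. The longer TEAD motif ACATTCCA, which contains the core and is present in 1.17% of all windows on either strand, was found in none of these 10 windows. These are letter matches in short windows and no binding was measured. The motifs TGACGTCA and TATAAA were added after the windows had been read.

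The summed transcript level of the 6 ligands was lower in shM2-3, and its composition differed. The 6 ligands summed to 50.9 and 53.2 RPKM in shCtl and to 21.9 and 20.9 in shM2-3, so that 41.1% of the summed level remained. With 2 libraries against 2, an exact permutation test (two-sided) cannot go below p = 0.333, and it gave that value. Most of the difference came from HBEGF: without it the sums were 13.7 and 13.8 against 10.6 and 9.74. HBEGF made up 73.1% and 74.0% of the summed level in shCtl and 51.4% and 53.3% in shM2-3. The share of NRG1 went from 17.3% and 16.9% to 8.50% and 8.64%, and that of EREG from 7.04% in both shCtl libraries to 35.5% and 33.5%.

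Shares depend on the transcript length behind RPKM. The length implied by the deposited values was 17904 bases for NRG1, against 11983 for its canonical transcript, whereas the implied and canonical lengths of HBEGF, EREG, AREG and BTC were within 2 bases of each other. Per canonical length, NRG1 made up 23.9% and 23.3% of the ligand level in shCtl and 12.2% and 12.4% in shM2-3. EREG was then at 6.48% and 6.49% against 34.0% and 32.2%, so the order of the ligands was kept in each group. The 5 ligands that bind EGFR, without NRG1, summed to 42.1 and 44.2 RPKM in shCtl and to 20.04 and 19.0 in shM2-3, while EGFR itself stayed near 20 RPKM.

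**Figure D3:**
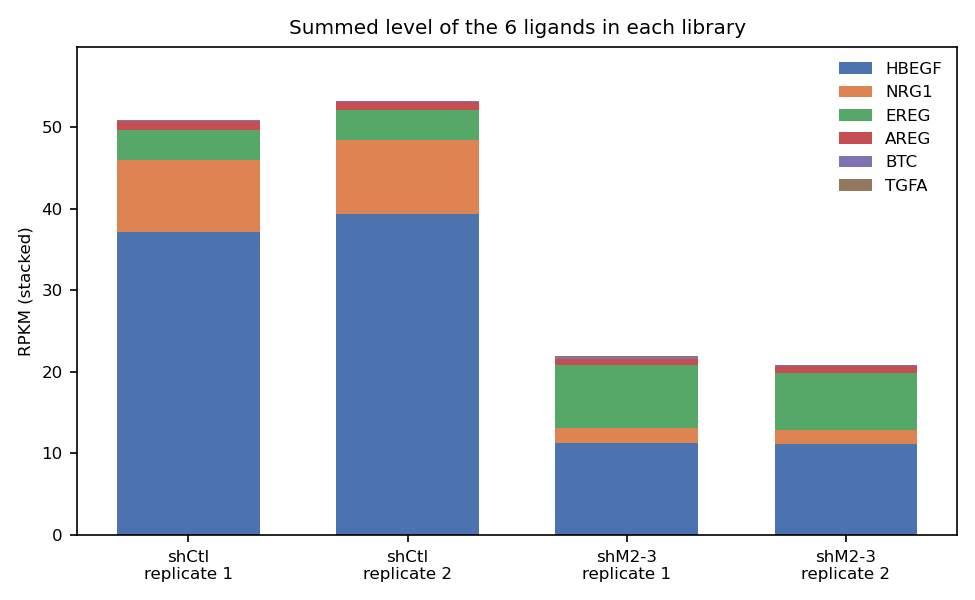
Stacked RPKM of the 6 ligands in each library. The columns reach 50.9 and 53.2 RPKM in shCtl and 21.9 and 20.9 in shM2-3, HBEGF is the largest part in each, and EREG takes a larger part than NRG1 in shM2-3 only.

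Other genes of the pathway were read from lists written by role. Among 13 genes for ligand shedding and trafficking, 12 were tested, 4 were called higher and 2 lower, and the median log2 fold change was 0.50, against -0.0037 over all genes tested, of which 9.24% were called higher and 8.93% lower. ADAM17, the main sheddase of AREG, EREG, HBEGF and TGFA, rose with a log2 fold change of 0.65 (edgeR quasi-likelihood adjusted p = 1.25e-06), under the fold limit, and ADAM10, which sheds BTC, rose with 0.75. The genes that bring ADAM17 to the surface and hold it there were called higher, with log2 fold changes of 1.07 for RHBDF1, 1.09 for RHBDF2 and 1.10 for FRMD8. These values are close to the fold limit, and on the log2(RPKM + 1) scale none of these 3 genes was called. ADAM19, a protease that can cut neuregulin precursors, rose most, from 475 and 537 counts to 5252 and 4964 (log2 fold change 3.19). ADAM12 and ADAM15 fell by 1.60 and 1.28. Of the 5 remaining ligands listed, NRG2 alone was above the RPKM limit, and only in the shCtl libraries, so that it entered the test through the group where it was higher. It had counts of 150 and 112 under shCtl and of 89 and 96 under shM2-3, with a log2 fold change of -0.64 (edgeR quasi-likelihood adjusted p = 0.0212).

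For the steps between receptor and nucleus, the shares to read the counts against are again 9.24% of all tested genes called higher, 8.93% called lower and 72.7% with an adjusted p of 0.05 or less. Of 25 adaptors and proximal effectors, 21 were tested, 10 had an adjusted p of 0.05 or less and were higher, 3 were lower, and the median was 0.13. NCK2, an SH2 and SH3 adaptor, was the only one called, at 1.01. It was under the fold limit with total counts and without the RPKM filter. The call was also lost on both limma scales and without replicate 1 of either group. STAT5B had the lowest value, at -0.76. STAT5A, another of the 3 lower genes, exceeded the RPKM limit in the shCtl libraries alone and so entered the test through the group where it was higher. None of the 15 RAS-ERK and AKT kinases and GTPases was called by edgeR's quasi-likelihood test, by DESeq2 or by limma. With edgeR 7 of them were higher and 5 lower at an adjusted p of 0.05 or less (12 at an unadjusted p under 0.05), with values from -0.57 for MAPK3 (ERK1) to 0.81 for PDPK1. Of 24 genes for receptor inhibition and turnover, 23 were tested, with a median of 0.33. At an adjusted p of 0.05 or less 16 were higher and 3 lower, and only PTPRJ and SH3KBP1 were called, both higher. PTPRJ, a receptor phosphatase that acts on EGFR, went from 1098 and 1056 counts to 5312 and 4641, a rise of 2.06 on the log2 scale. SH3KBP1 (CIN85), which works with CBL in EGFR uptake, rose with 1.34. ERRFI1 (MIG6), an inhibitor of the EGFR kinase, was the most abundant of the list and went from 294 ± 6.20 to 360 ± 0.232 RPKM, a log2 fold change of 0.36. HGS was the lowest, at -0.50.

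The 10 genes of a common ERK output list were higher in 9 cases and lower in 1, each with an adjusted p of 0.05 or less, and 5 were called higher (median log2 fold change 1.00), where 72.7% of all tested genes passed the p limit and 9.24% were called higher. DUSP4, an ERK phosphatase, rose most, from 3.60 ± 0.0958 to 42.2 ± 0.458 RPKM (log2 fold change 3.62). PHLDA1, SPRY4, DUSP6 and ETV4 were the other genes called, at 1.10, 1.48, 1.18 and 1.37, and EPHA2 was the one that fell, by 0.62. These lists are described by their counts and medians, and no test compared them with other genes.

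**Figure D4:**
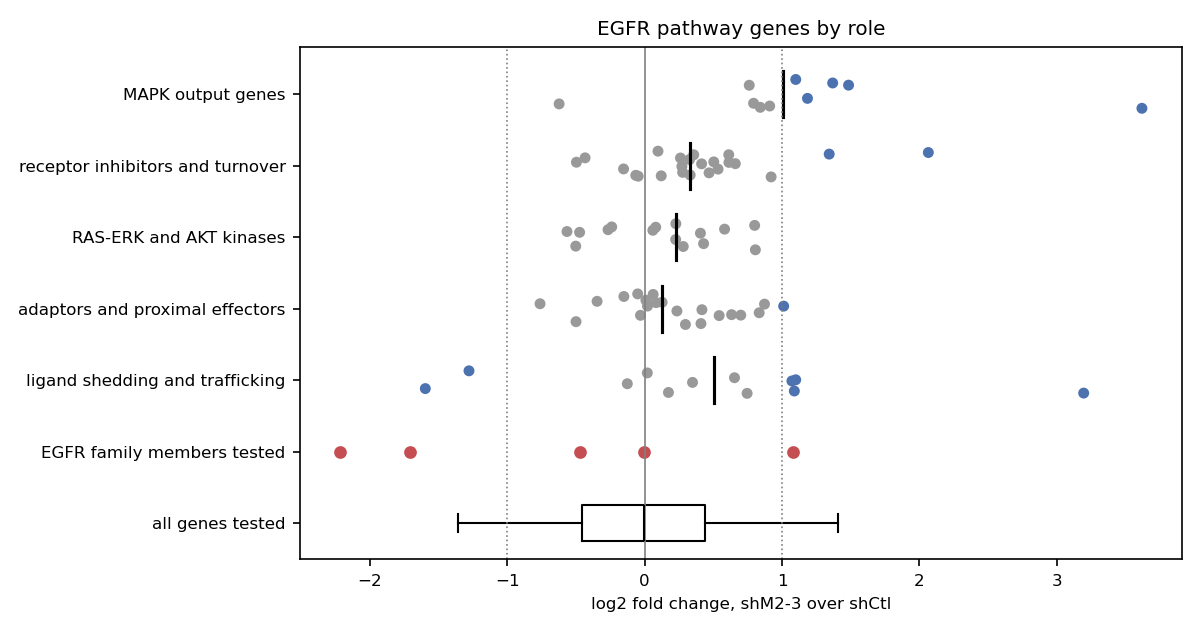
Log2 fold change of shM2-3 over shCtl for the tested genes of each list. Blue points were called, grey points were not, and black lines are list medians. Red points are the 5 tested members, and the box gives the quartiles of all 12157 genes tested, with whiskers at the 5th and 95th percentiles. Dotted lines mark a fold change of 2. HBEGF and NRG1 lie outside the lower whisker and EREG inside the upper one.

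Reads of genes that overlap could not be assigned by strand, because the libraries were not strand-specific. EGFR shares exon bases with EGFR-AS1, ERBB2 with MIEN1 and PGAP3, and NRG1 and ERBB3 each with a gene known only by an identifier. No annotated gene overlaps HBEGF, EREG, AREG or BTC.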

How the data were processed

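RNA-seq libraries of ES-2 cells (shCtl and shM2-3, 2 biological replicates each) were non-strand-specific and paired-end. The authors quantified RefSeq transcripts in Partek 7.18, from alignments to hg38 made with HISAT2 2.0.4. Only reads with an unambiguous place and a mapping quality of at least 10 were kept. The deposited estimated counts per gene, many of which were not whole numbers, were rounded before testing. The deposited RPKM values, which the authors computed with 1 length per gene, served for levels, sums and the filter; the mapped reads they imply were 1.17 to 1.19 times the summed counts.

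Counts were tested with edgeR 4.0.16 (R 4.3.3; TMM, quasi-likelihood, Benjamini-Hochberg over the 12157 genes whose RPKM exceeded 1 in any library). A call required a fold change of 2 or more with an adjusted p not above 0.05. Members under that limit came from a fit to all 19626 genes, added after the data were seen. Alternatives used total counts, DESeq2 1.42.0, limma 3.58.1 on log2(RPKM + 0.1) and log2(RPKM + 1), other filters and a fold limit of 1.5, the replicate number as a block, and fits that omit single libraries. The test scripts were run on simulated data first.

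The members and gene lists were chosen with earlier results of these data known. All members are described, and from each pathway list the lowest and highest genes and those called are named. ADAM10, ADAM17 and ERRFI1 were added for their roles, VAV3 and SHC3 for their calls without a filter, and STAT5A for its filter status, after their values were seen. Replicates differed by more than counting error (chi-square per degree of freedom 3.44 and 3.98). The edgeR p-values cover counting error and the spread between these cultures only, with a dispersion moderated over all genes fitted. In the fit without a filter, a gene's own replicate spread had almost no weight. NRG3, CBLC and MUC16 were not analysed here.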

Additional observations from a re-analysis of the deposited data

How the results depend on the processing

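HBEGF (-1.77 to -1.67) and NRG1 (-2.25 to -1.81, log2 fold change) were called lower under every alternative run. Members called numbered 2 to 4: both limma scales left out EREG (0.99 and 0.84), and the fit without a filter added ERBB4. At its low level ERBB4 could not reach the fold limit on the log2(RPKM + 1) scale, where it was -0.17. EGFR changed sign between -0.0258 and 0.0165 as single libraries were left out. Deviations of same-numbered libraries were hardly correlated (-0.0334), and the labels do not say whether these libraries were handled together. With the replicate block 3 members were called, EREG at 1.08, HBEGF at -1.71 and NRG1 at -2.21.

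A fold limit of 1.5, which 37.8% of all tested genes passed, gave 8 calls among the shedding genes and 1 among the other ligands. It gave 6 among adaptors, 2 among RAS-ERK and AKT genes, 6 among inhibitors and 10 among ERK output genes. Of the shedding genes 3 were called on the log2(RPKM + 1) scale, where RHBDF1, RHBDF2 and FRMD8 were lost, and RHBDF1 was also lost on the log2(RPKM + 0.1) scale. Adaptor calls, in the reported fit NCK2 alone, numbered 0 with total counts and on both limma scales and 2 without a filter, where NCK2 was lost and VAV3 and SHC3, under the RPKM limit, were called. They ranged from 0 to 1 as libraries were left out, NCK2 being lost without replicate 1 of either group. The log2 ratio of summed receptors, -0.08, was -0.23 without EGFR and 0.074 in TPM. That of summed ligands, -1.28, was -0.43 without HBEGF, -1.13 in TPM and -1.34 per canonical length, a setting chosen after seeing the data. The longer TEAD motif was in 0 of the 10 windows. Apart from what leaving out genes, lowering a limit or adding 1 to a low RPKM brings by construction, the cause was not tested. Counts under about 100 per library limit ERBB2, ERBB3, ERBB4, AREG, BTC and TGFA.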
